A study of Mus musculus with 12 samples.

Results

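Slits are secreted ligands and Robo proteins are their receptors on the cell surface. The 5 genes described here are the ligand genes Slit2 and Slit3 and the receptor genes Robo1, Robo2 and Robo4. They were chosen by gene symbol, and 9 of 45101 probe sets on the arrays named one of them alone, so that they make up 5 of 18194 genes measured. Each gene is represented by its brightest probe set, that with the highest mean over all 12 arrays, and the others are given beside it.

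The arrays carried RNA of heart ventricles from mouse embryos at 14.5 days post coitum, in 4 groups of 3 arrays each. KO_LV and KO_RV are left and right ventricles of Nos3-/- embryos of strain B6.129P2-Nos3tm1unc/J, which carry a targeted germline allele of the gene of endothelial nitric oxide synthase. WT_LV and WT_RV are left and right ventricles of wild-type CD1 embryos. Each array held a pool of 15 to 30 embryos. Because every KO pool had one strain background and every WT pool another, the Nos3 allele and the strain cannot be told apart. Nothing in the labels says which pools came from which litters, so p-values measure the spread between pools. The study asked how the ventricular transcriptome differs between the genotypes. Values are log2 expression, differences are on that scale, and the number of arrays limits their precision.

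Slit proteins bind the outer immunoglobulin domains of Robo1 and Robo2, and heparan sulphate chains on cell surface proteoglycans take part in this complex. The receptors have no enzyme activity and act through adaptor proteins on the actin cytoskeleton. The pathway is best known for steering growing axons away from the midline of the nervous system. In the mouse heart, Slit and Robo genes are known from the forming chambers, and loss of Robo1 or of Slit3 disturbs the septum, the pericardium or the valves. Robo4 is a shorter family member of endothelial cells, which line vessels.

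The stretches just upstream of the starts of Slit2, Robo1 and Slit3 are shown because Slit2 and Robo1 differed between the genotypes and Slit3 did not pass the test. They are 250 bases of the RefSeq mouse reference (GRCm38.p6, the C57BL/6J strain), forward strand, 5′ to 3′. Capitals mark a TATA box (TATAAA), a GC box (GGGCGG) or an E-box (CANNTG), searched on both strands; a GC box on the reverse strand reads CCGCCC here.
Slit2, chr5:47982905-47983154: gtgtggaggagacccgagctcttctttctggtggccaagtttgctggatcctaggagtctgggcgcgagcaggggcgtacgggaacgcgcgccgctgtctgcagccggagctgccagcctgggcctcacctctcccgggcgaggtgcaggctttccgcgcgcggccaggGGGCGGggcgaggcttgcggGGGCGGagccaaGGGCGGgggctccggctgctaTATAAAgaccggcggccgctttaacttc
Robo1, chr16:72662899-72663148: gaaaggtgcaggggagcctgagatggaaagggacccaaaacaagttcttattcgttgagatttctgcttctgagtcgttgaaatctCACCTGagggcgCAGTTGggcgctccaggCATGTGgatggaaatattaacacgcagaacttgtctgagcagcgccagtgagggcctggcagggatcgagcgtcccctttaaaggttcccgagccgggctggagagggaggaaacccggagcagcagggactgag
Slit3, chr11:35121206-35121455: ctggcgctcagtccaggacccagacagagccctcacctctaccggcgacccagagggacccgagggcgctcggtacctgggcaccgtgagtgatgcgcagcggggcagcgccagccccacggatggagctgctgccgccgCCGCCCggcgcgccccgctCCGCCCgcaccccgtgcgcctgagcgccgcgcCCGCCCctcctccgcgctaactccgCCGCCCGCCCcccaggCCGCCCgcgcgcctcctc

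The Slit2 stretch held 1 TATA box whose first letter lay 28 bases upstream of the start, and 3 GC boxes at 81, 61 and 49 bases. The Robo1 stretch held neither of these motifs and had 3 E-boxes, at 164, 152 and 135 bases upstream. The Slit3 stretch held 6 GC boxes on the reverse strand, of which those at 34 and 30 bases overlap. Over 32851 RefSeq promoters of the same length, 12.37% held the TATA box, 32.74% the GC box and 66.22% the E-box. Bases G and C made up 69.6% of the Slit2 stretch, 56% of that of Robo1 and 78.8% of that of Slit3, against a median of 52.4% over all promoters. The Slit2 and Slit3 stretches held 25 and 35 CG dinucleotides, and that of Robo1 held 11, where the median promoter held 6. The 2 genes that differed between the genotypes thus shared none of these 3 motifs. These matches describe the reference letters, and the sequences of the study's own strains were not analysed here. Slit2 lies on chromosome 5, as does Nos3, with 214 protein-coding genes between them, while Robo1 and Robo2 are neighbours on chromosome 16.

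Nos3 itself read 7.95, 8.02 and 7.86 in KO_LV, against 8.36, 8.39 and 8.30 in WT_LV, and 8.23, 8.04 and 7.77 in KO_RV, against 8.72, 8.94 and 8.37 in WT_RV. The KO values were lower in each ventricle, by a difference of -0.41 (limma adjusted p = 0.0376) and -0.66 (limma adjusted p = 0.00983), yet stood above the median of all values in the table, 5.67. Whether this probe set lies in the disrupted stretch is not given in the sources used here, so it is a weak check of the labels. Transcripts added to the RNA before labelling (24 poly-A control probe sets) averaged 8.89 to 8.96 on the 3 WT_LV arrays and WT_RV replicate 3, and 7.35 to 8.47 on the other 8 arrays. This control class splits the left ventricles exactly as the genotype does, and a class term in the fit rests on WT_RV replicate 3 alone. In Sema3c, a semaphorin of the outflow tract, that array stood with the other right ventricles. Sema3c read 8.36, 8.16 and 8.35 in WT_RV, against 7.30, 7.30 and 7.56 in WT_LV. In the dystroglycan gene Dag1 that array read 11.16, as WT_LV did (10.97, 10.87 and 11.19), and lay below the other WT_RV arrays (11.76 and 11.72). Both genes were picked with their values in view, so they are not a test of this array. Among all genes, KO_LV was called higher than WT_LV for 3378 and lower for 2239 (4282 and 1212 after median centring of the arrays), and 838 were higher and 652 lower in KO_RV than in WT_RV (852 and 374 after centring). As the tissue was not separated into cell types, fewer cells of a type and less RNA per cell cannot be told apart.

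Slit2 was about 3-fold higher in KO than in WT left ventricles and over 2-fold higher in KO than in WT right ventricles. In the left ventricle its probe set read 11.37, 11.72 and 11.47 in KO_LV, against 10.12, 10.02 and 9.49 in WT_LV. In the right ventricle it read 11.49, 11.48 and 11.04 in KO_RV, against 10.44, 10.43 and 9.48 in WT_RV. The lowest KO array lay above the highest WT array in each ventricle, and the lowest reading among the right ventricles came from WT_RV replicate 3. The difference was 1.64 in the left ventricle (11.52 ± 0.18 in KO_LV and 9.88 ± 0.34 in WT_LV, SD, n = 3 each; SE 0.23, 95% interval 1.14 to 2.15, limma adjusted p = 0.000298). It was 1.22 in the right ventricle (11.34 ± 0.26 in KO_RV and 10.12 ± 0.55 in WT_RV, SD, n = 3 each; SE 0.23, 95% interval 0.72 to 1.72, limma adjusted p = 0.0063). As linear ratios these are 3.12 and 2.33, and Slit2 held place 39 of 18194 genes by size of rise in the left ventricle and place 57 in the right. With a term for the control class the left difference was 0.69 and did not pass the test (limma adjusted p = 0.343), and the right difference, which then equals that without WT_RV replicate 3, was 0.90 (limma adjusted p = 0.0134). With the control level as a number in place of the class, the differences were 1.19 and 0.87, and both passed (limma adjusted p = 0.00494 and 0.0305).

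Slit2 levels in the ventricles of one genotype overlapped. The groups ran in the order KO_LV, KO_RV, WT_RV and WT_LV from high to low. The right-minus-left difference was -0.18 in KO (95% interval -0.69 to 0.32, limma adjusted p = 0.86) and 0.24 in WT (95% interval -0.26 to 0.74, limma adjusted p = 0.629). Only the step between the genotypes in that order was therefore past the spread.

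**Figure D1:**
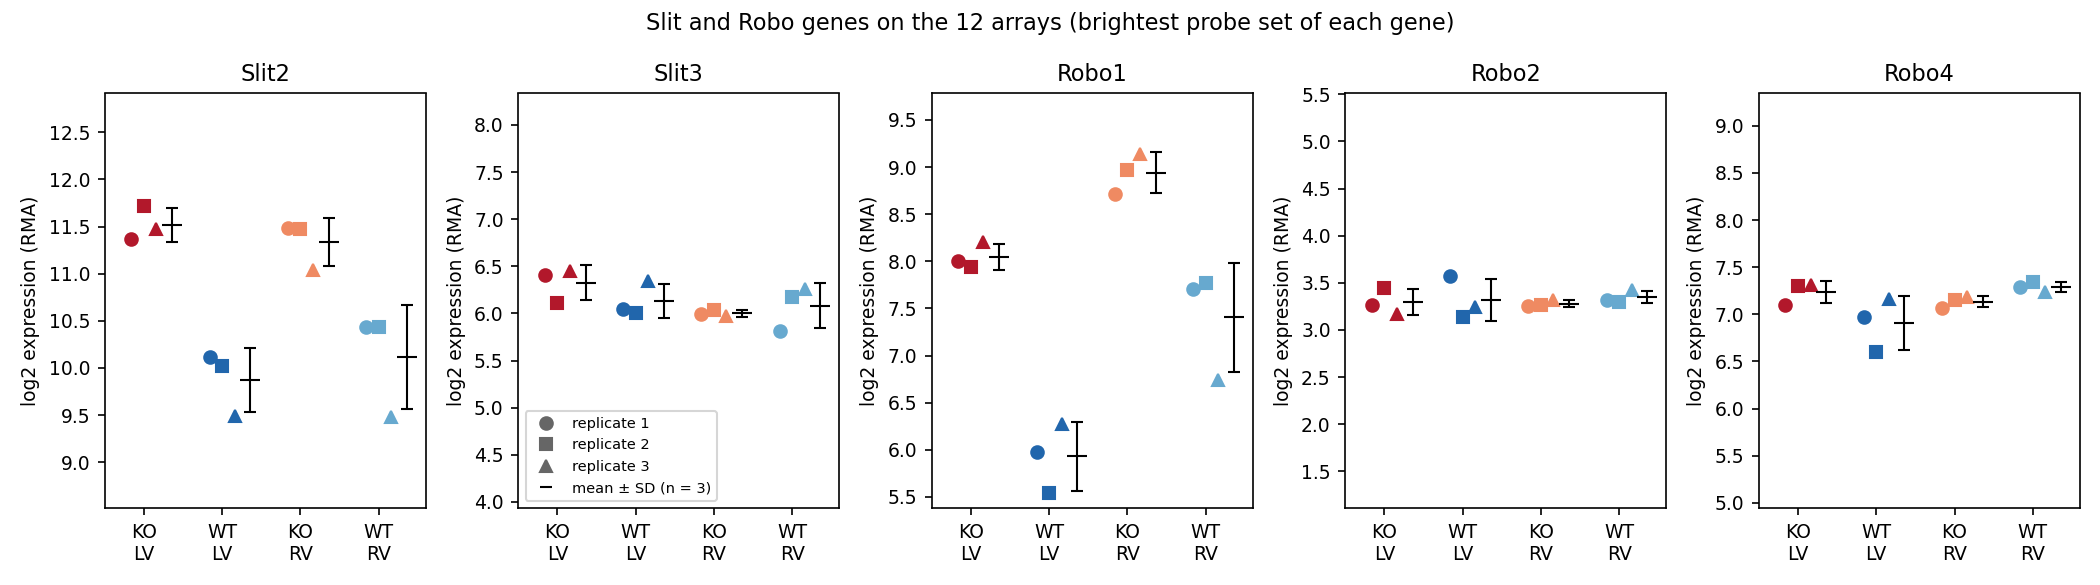
Log2 expression (RMA) of the 5 genes on each of the 12 arrays, by group, with 1 panel per gene; symbols mark replicates 1 to 3, and bars give the mean ± SD (n = 3). In Slit2 and Robo1 every KO array stands above every WT array of the same ventricle, whereas Slit3 and Robo2 overlap between genotypes.

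The 2 dimmer probe sets of Slit2 went different ways in the left ventricle. Probe set 1451430_at read 6.32, 6.51 and 6.52 in KO_LV, against 5.16, 5.53 and 4.98 in WT_LV, and 6.10, 6.40 and 6.16 in KO_RV, against 5.55, 5.51 and 4.76 in WT_RV. Its differences of 1.23 and 0.95 passed the test in both ventricles (limma adjusted p over all probe sets 0.001405 and 0.01679). Probe set 1458140_at read 6.58, 7.43 and 6.24 in KO_LV, against 7.36, 7.68 and 6.59 in WT_LV, and 6.77, 6.84 and 6.67 in KO_RV, against 6.10, 6.40 and 6.40 in WT_RV. Its differences of -0.46 and 0.46 did not pass in either ventricle. Its left ventricle arrays overlap, while every KO_RV array lay above every WT_RV array, as for 11.8% of all genes. The brightest probe set and 1451430_at thus gave the same direction in both ventricles. The annotation names the same source sequence for both of them, and another for 1458140_at, so their agreement is not that of independent sequences. Probe set 1458140_at gave that direction in the right ventricle only, without a call. Which part of the Slit2 transcript each probe set targets is not given in the sources used here.

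Slit3, the second ligand measured, did not pass the test between the genotypes. Its only probe set read 6.41, 6.11 and 6.45 in KO_LV, against 6.05, 6.0 and 6.34 in WT_LV, and 5.99, 6.04 and 5.97 in KO_RV, against 5.81, 6.17 and 6.26 in WT_RV. The difference was 0.19 in the left ventricle (95% interval -0.09 to 0.47, limma adjusted p = 0.289) and -0.08 in the right (95% interval -0.36 to 0.20, limma adjusted p = 0.734). Both intervals end well short of the differences of Slit2. The Slit3 probe set averaged 6.13 over the 12 arrays, near the median of all values (5.67), while that of Slit2 averaged 10.71. Detection calls were not analysed here, so a change that the Slit3 probe set does not register could not be seen. Within KO, the right ventricles all read below the left ventricles, by a difference of -0.32 that did not pass (95% interval -0.60 to -0.04, limma adjusted p = 0.382).

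Slit1, the ligand best known from the nervous system, is not one of the 5 genes and was read for comparison. Its brighter probe set read 6.04, 6.01 and 6.22 in KO_LV, against 6.44, 6.24 and 6.54 in WT_LV, and was called lower by a difference of -0.32 (limma adjusted p = 0.0399), a call that was lost with either control term. The difference of -0.33 between KO_RV and WT_RV did not pass (limma adjusted p = 0.0764). Its other probe set read 0.24 and 0.10 higher in KO than in WT, not called, so the probe sets of Slit1 disagree in sign.

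Robo1, the receptor known from the mouse cardiac septum and from commissural axons, was the member with the largest genotype difference, and it also differed between the ventricles. It read 8.0, 7.94 and 8.20 in KO_LV, against 5.98, 5.54 and 6.27 in WT_LV. In the right ventricle it read 8.71, 8.97 and 9.14 in KO_RV, against 7.71, 7.77 and 6.74 in WT_RV. None of the pairs of groups compared overlapped, and WT_RV replicate 3 lay between the WT_LV arrays and its own group. The difference was 2.12 in the left ventricle (8.05 ± 0.14 in KO_LV and 5.93 ± 0.37 in WT_LV, SD, n = 3 each; SE 0.24, 95% interval 1.60 to 2.63, limma adjusted p = 5.655e-05). It was 1.53 in the right ventricle (8.94 ± 0.22 in KO_RV and 7.41 ± 0.58 in WT_RV, SD, n = 3 each; SE 0.24, 95% interval 1.02 to 2.05, limma adjusted p = 0.00152). As linear ratios these are 4.34 and 2.89, at place 15 and place 33 of all genes by size of rise. With a term for the control class the left difference was 1.12 and did not pass (limma adjusted p = 0.099), and the right one was 1.20 and passed (limma adjusted p = 0.00194). With the control level as a number they were 1.94 and 1.40, and both passed (limma adjusted p = 0.00178 and 0.0121).

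Robo1 was higher in the right than in the left ventricle of WT embryos. The difference was 1.48 (SE 0.24, 95% interval 0.96 to 1.99, limma adjusted p = 0.00898), a ratio of 2.78, and only 4 genes had a larger right-sided excess there. It did not pass without WT_LV replicate 2 (1.28, limma adjusted p = 0.0514), without WT_RV replicate 1 (1.33, limma adjusted p = 0.0572) or without WT_RV replicate 2 (1.30, limma adjusted p = 0.055). With the control class as a term it was 0.81 (limma adjusted p = 0.209), and with the control level 1.33 (limma adjusted p = 0.0721). The KO arrays were all of one control class, in which the poly-A controls averaged 8.055 to 8.47 in KO_LV and 7.35 to 8.37 in KO_RV. In KO embryos the right ventricles read 0.89 higher (8.94 ± 0.22 in KO_RV and 8.05 ± 0.14 in KO_LV, SD, n = 3 each; 95% interval 0.38 to 1.41), which did not pass (limma adjusted p = 0.117). That difference passed without WT_RV replicate 3, an array of neither group that enters through the shared spread (limma adjusted p = 0.0135). From high to low the Robo1 groups ran KO_RV, KO_LV, WT_RV and WT_LV, and the step between KO_LV and WT_RV was not tested.

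**Figure D2:**
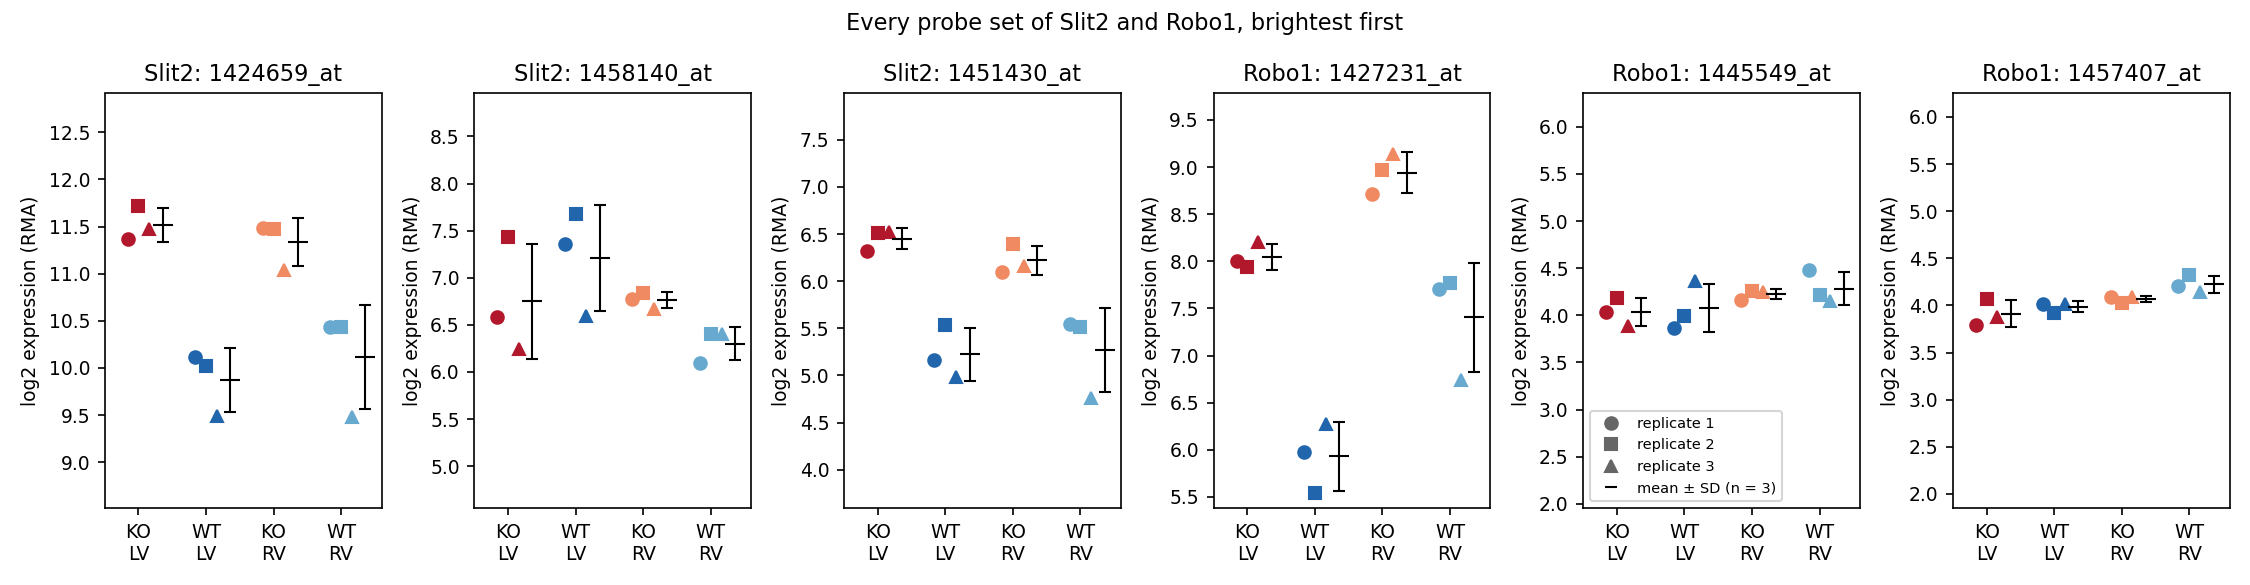
Log2 expression (RMA) on each array for the 3 probe sets of Slit2 and the 3 of Robo1, 1 panel per probe set; symbols mark replicates and bars give the mean ± SD (n = 3). The KO excess appears in 1424659_at and 1451430_at of Slit2 and in 1427231_at of Robo1, and the 2 other Robo1 sets stay between 3.79 and 4.48 on every array.

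The 2 other probe sets of Robo1, 1445549_at and 1457407_at, read between 3.79 and 4.48 on every array, under the median of all values. Their differences were -0.04 and -0.07 between KO_LV and WT_LV, and -0.06 and -0.15 between KO_RV and WT_RV, none of which passed. The Robo1 results thus rest on 1 probe set. When the probe sets of a gene were averaged, the Robo1 difference was 0.67 in the left ventricle, which passed, and 0.44 in the right, which did not (limma adjusted p = 0.0513).

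Robo2, the neighbour of Robo1 and a receptor of axons and of the developing kidney, stood near the low end of the scale, whose lowest value is 2.42. It read 3.27, 3.45 and 3.17 in KO_LV, against 3.57, 3.14 and 3.24 in WT_LV, and 3.25, 3.26 and 3.32 in KO_RV, against 3.32, 3.30 and 3.42 in WT_RV. All groups overlapped. The differences of -0.02 and -0.07 did not pass (limma adjusted p = 0.914 and 0.725), and since detection calls were not analysed here, a difference in a transcript that this probe set does not register could not be seen.

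Robo4, the endothelial receptor, read 7.10, 7.30 and 7.31 in KO_LV, against 6.97, 6.60 and 7.16 in WT_LV, and 7.07, 7.15 and 7.18 in KO_RV, against 7.29, 7.34 and 7.24 in WT_RV. The KO_LV and WT_LV arrays overlapped, and all KO_RV arrays lay below all WT_RV arrays. The differences were 0.33 (95% interval 0.07 to 0.59, limma adjusted p = 0.0549) and -0.16 (95% interval -0.42 to 0.10, limma adjusted p = 0.434), neither of which passed. The left difference passed under 6 of 25 other settings. Among these were the fits without WT_LV replicate 3 (0.45, limma adjusted p = 0.0118), without KO_LV replicate 1 (0.40, limma adjusted p = 0.047) and after median centring (0.42, limma adjusted p = 0.0252). Robo4 also read 0.38 higher in WT_RV than in WT_LV, with no overlap and no call (limma adjusted p = 0.147). Robo3, which stands beside Robo4 on chromosome 9 and acts in hindbrain commissures, passed in no comparison, with -0.14 and 0.19 between the genotypes in the left and right ventricle.

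Between KO and WT, 2 of the 5 genes were called higher and 0 lower in each ventricle. Of all genes tested, 30.9% were called in the left ventricle (18.6% higher and 12.3% lower) and 8.19% in the right ventricle (4.61% higher and 3.58% lower). KO_LV and WT_LV did not overlap for 2 of the 5 genes, both higher in KO_LV, against 44.4% of all genes (23.8% higher and 20.6% lower). KO_RV and WT_RV did not overlap for 3, of which Slit2 and Robo1 were higher and Robo4 lower in KO_RV, against 29.4% of all genes (11.8% higher and 17.6% lower). Between WT_RV and WT_LV 1 of the 5, Robo1, was called higher, against 0.984% of all genes (0.764% higher and 0.22% lower). Between KO_RV and KO_LV 0 of the 5 were called by limma, against 1.14% of all genes (0.55% higher and 0.594% lower), and 2 of them, Slit3 and Robo1, had an unadjusted p under 0.05, as did 10.3% of all genes. Between WT_RV and WT_LV this was so of 2, Robo1 and Robo4, and of 17.1% of all genes. WT_RV and WT_LV did not overlap for 2 of the 5, Robo1 and Robo4, both higher in WT_RV, against 15.7% of all genes (10.9% higher and 4.85% lower). KO_RV and KO_LV did not overlap for 2, Robo1 higher and Slit3 lower in KO_RV, against 19.7% of all genes (9.24% higher and 10.4% lower). The ventricle and genotype comparisons share arrays, so their calls are not independent of each other. The 5 genes were chosen with earlier results of these data known, so these counts do not test them as a set.

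**Figure D3:**
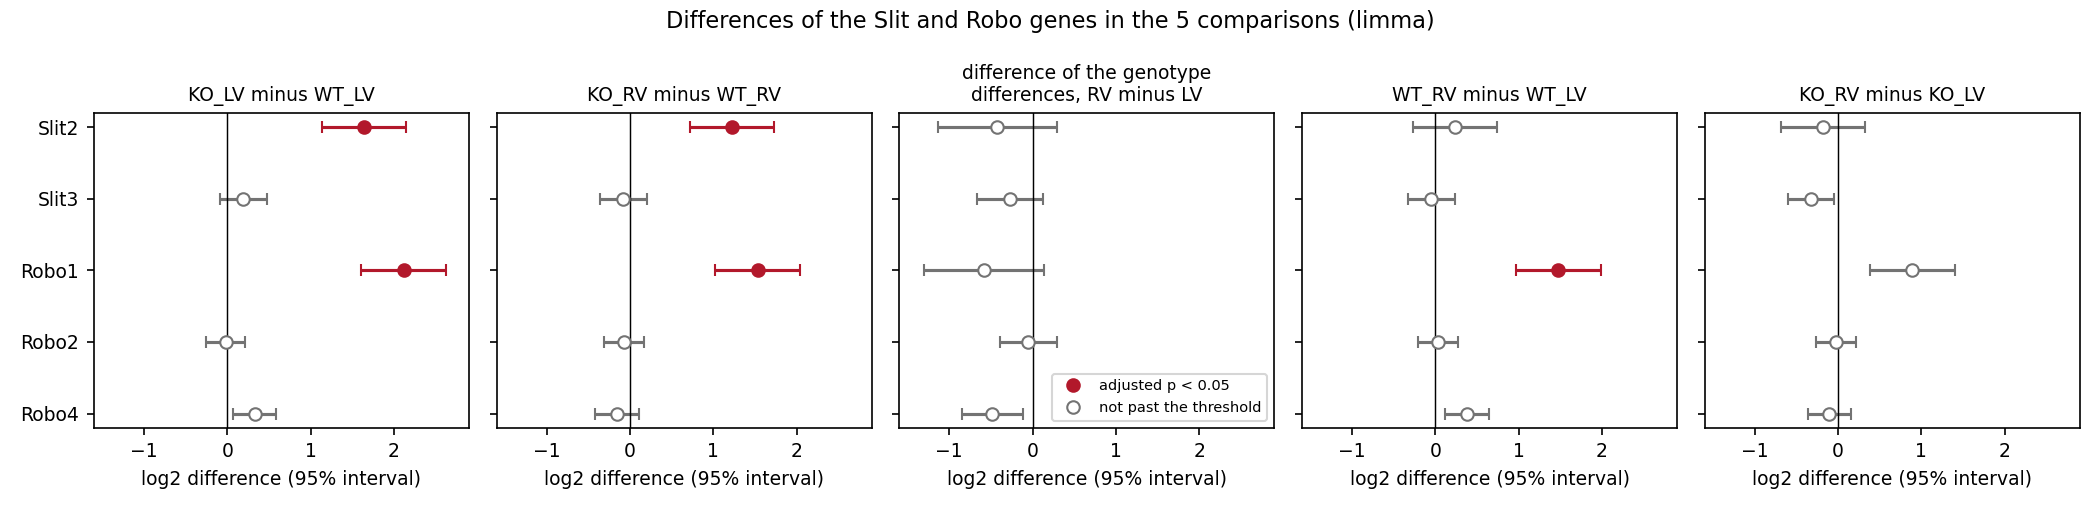
Differences of the 5 genes on the log2 scale with 95% intervals from limma, in 5 panels: KO minus WT in the left and in the right ventricle, the difference of these differences, and right minus left ventricle in WT and in KO. Filled points passed the adjusted p threshold, which Slit2 and Robo1 did in both genotype comparisons and Robo1 in WT ventricles.

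The genotype differences of the right and left ventricle were compared with each other by an interaction term. That difference of differences, right minus left, was -0.42 for Slit2 (95% interval -1.14 to 0.29, limma adjusted p = 0.572), -0.58 for Robo1 (95% interval -1.31 to 0.14, limma adjusted p = 0.432) and -0.48 for Robo4 (95% interval -0.85 to -0.12, limma adjusted p = 0.314). Of the 5 genes 0 passed by limma, as did 0.022% of all genes, and Robo4 alone had an unadjusted p under 0.05, as did 13.9% of all genes. Without WT_RV replicate 3 the term of Robo1 passed (-0.92, limma adjusted p = 0.043), while 7.19% of all genes passed there. The intervals of Slit2 and Robo1 thus include both no difference between the ventricles and one of about 1.

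**Figure D4:**
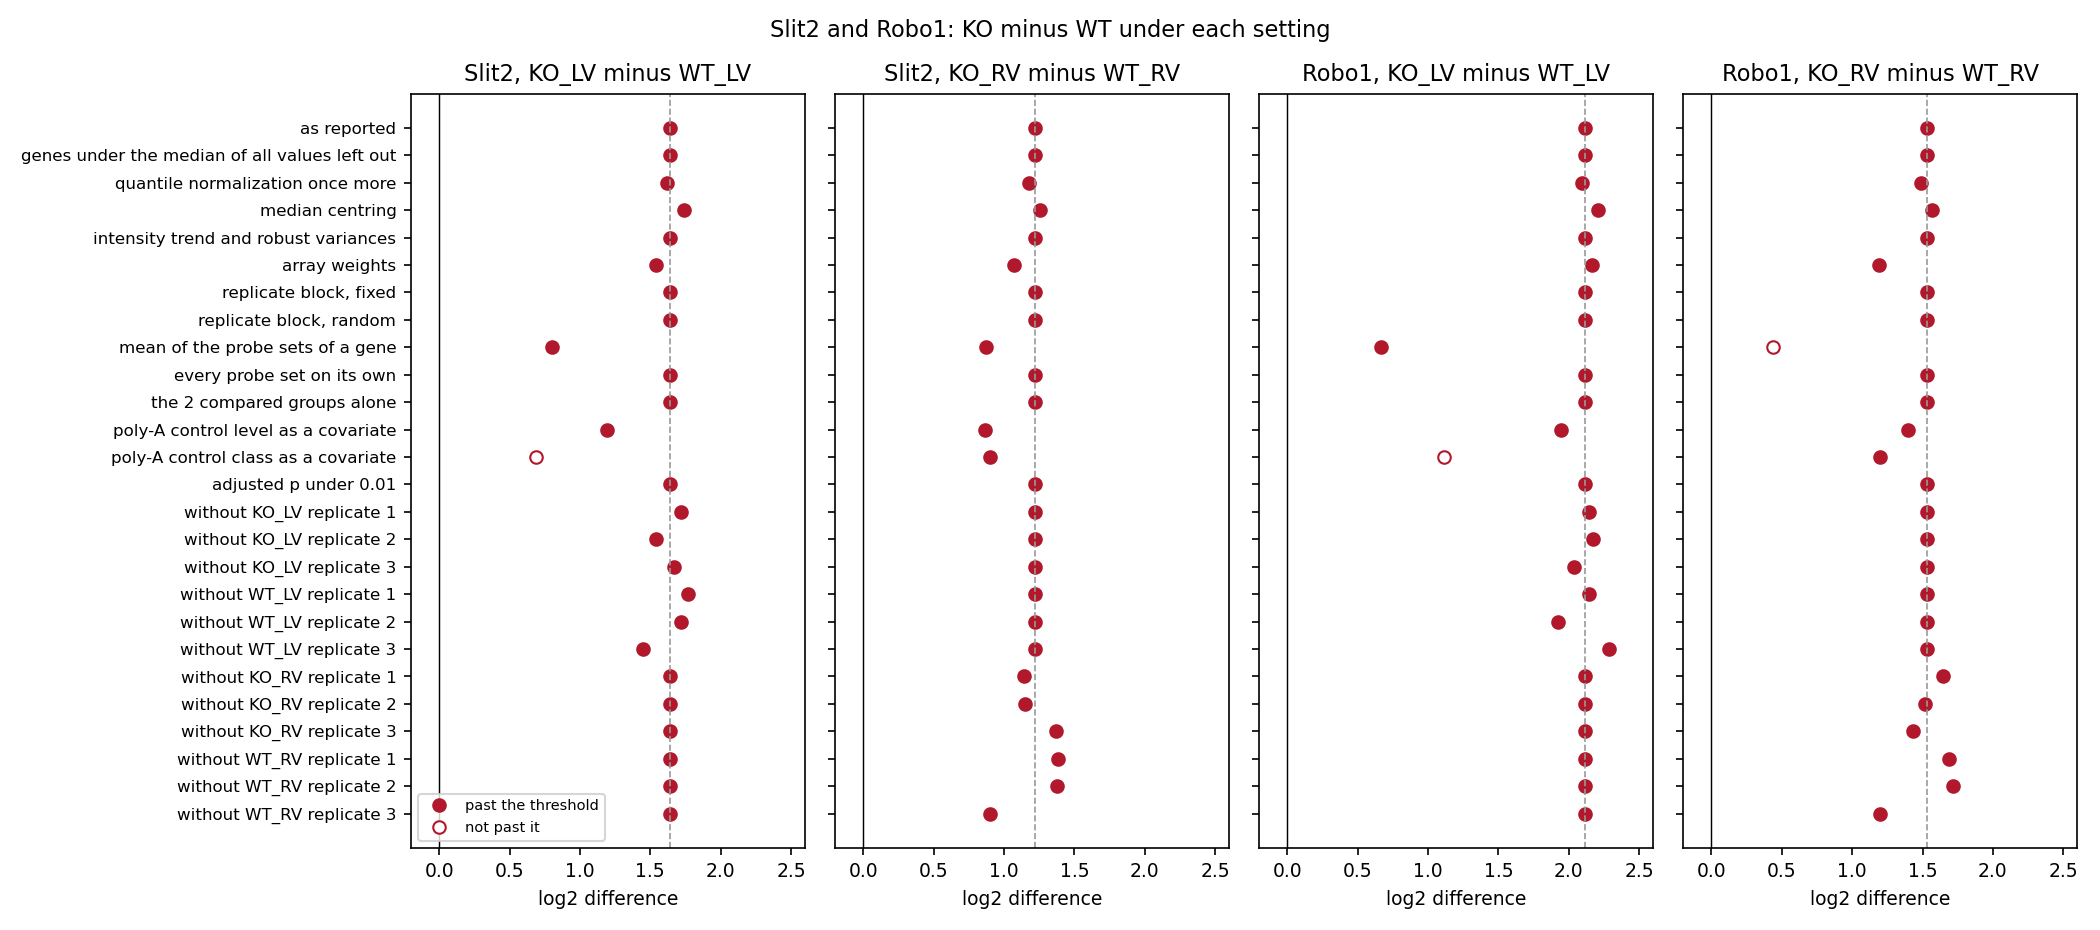
KO minus WT difference (log2) of Slit2 and Robo1 in each ventricle under each setting of the analysis, 1 row per setting; filled points passed the test, and the dashed line marks the reported value. All points lie right of 0; the left ventricle calls were lost with the control class as a term, and the right ventricle call of Robo1 with averaged probe sets.

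Syndecans and glypicans carry the heparan sulphate that Slit and Robo bind, and Flrt3, dystroglycan (Dag1) and the netrin receptors partner with the system. The counts of the gene lists stand against 18.6% of all genes called higher and 12.3% lower in KO_LV than in WT_LV, and 4.61% and 3.58% in KO_RV than in WT_RV. The lists were chosen with earlier results of these data known, so their counts and medians describe them and do not test the pathway. Few list genes are dim: 1 of 9 here, 0 of 10 enzymes and 1 of 20 genes inside the cell stood under the median of all values. With genes under that median left out, 3391 of 11771 were called higher and 2120 lower in the left ventricle (46.8% called, median difference 0.05). In the right ventricle 862 were then higher and 552 lower. Of the 9 measured carriers and partners, 7 rose and 0 fell in KO_LV relative to WT_LV. Their median difference was 0.48, where the median over all genes was -0.01. In KO_RV relative to WT_RV 3 rose and 0 fell, with a median of 0.09 against -0.04 over all genes. Sdc4, a syndecan of focal adhesions, rose by 0.81 (limma adjusted p = 0.0001543) in the left and 0.74 (limma adjusted p = 0.0007315) in the right ventricle on the probe set used. Its second probe set, almost as bright, gave -1.22 and -1.59 and was called lower in both, so the direction of Sdc4 depends on the probe set. Dag1, which binds Slit through its glycans, rose by 0.70 in the left ventricle, and its 3 other probe sets gave 0.66 to 0.69. Sdc1 rose by 0.61 in the left and 0.43 in the right ventricle, while its 3 other probe sets gave -0.19 to 0.19 and none passed. Flrt3, a Robo1 co-receptor in the mouse brain, rose by 0.48 and 0.41, and its second probe set by 0.78 and 0.63. Flrt3 was also the 1 gene of this list called between ventricles, at 0.59 in WT_RV relative to WT_LV and 0.52 in KO_RV relative to KO_LV. The first call was lost with the control class (0.30, limma adjusted p = 0.3226) and with the control level (0.47, limma adjusted p = 0.136), and the second with the control level (0.43, limma adjusted p = 0.07202). Without WT_RV replicate 3 Dag1 was also called higher in WT_RV than in WT_LV (0.73, limma adjusted p = 0.00388).

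Enzymes that build and trim heparan sulphate were also called higher and not lower. Of 10 measured 6 rose and 0 fell in KO_LV relative to WT_LV (median 0.38), and 2 rose and 0 fell in KO_RV relative to WT_RV (median 0.12). Ext1, a polymerase of the chain, rose by 0.91 (limma adjusted p = 0.0002625) in the left ventricle, and its dimmer second probe set gave -0.74, called lower. The sulphotransferase genes Hs6st1 and Hs6st2 rose by 0.76 and 0.69 in the left and by 0.42 and 0.47 in the right ventricle. Hs6st1 has 1 probe set, and the next brightest set of Hs6st2 gave 0.72 and 0.40, of which the first passed.

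Of 20 measured genes that act inside the cell below Robo, 10 rose and 2 fell in KO_LV relative to WT_LV (median 0.27), and 1 rose and 1 fell in KO_RV relative to WT_RV (median 0.08). The 2 that fell in the left ventricle and the counts in the right are near the shares of all genes. Enah, an actin filament elongation factor whose Drosophila counterpart binds the Robo tail, rose by 0.90 (limma adjusted p = 0.0007558) in the left and 0.57 (limma adjusted p = 0.0301) in the right ventricle. The focal adhesion adaptor Pxn rose by 0.57 and the GTPase-activating protein Srgap2, a partner of the Robo tail, by 0.39 in the left ventricle, where none of their 2 and 3 other probe sets passed (0.03 to 0.21). Of the 5 other probe sets of Enah, 3 rose in the left ventricle (0.74, 0.77 and 0.96) and 2 did not pass (-0.22 and -0.81). Cap1, a protein that recycles actin monomers and is known in Slit signalling from Drosophila, fell by 1.53 (limma adjusted p = 4.311e-06) in the left and by 1.78 (limma adjusted p = 1.137e-06) in the right ventricle, and its second probe set gave -0.74 and -0.85, called lower in both. The adaptor Nck1 fell by 0.68 in the left ventricle, with -0.07 and -0.62 on its 2 other probe sets.

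With the control class as a term, the left ventricle counts were 0 higher and 0 lower for the first 2 lists, and 0 higher and 1 lower, Cap1, for the genes inside the cell, while 1.08% of all genes were called. In the right ventricle that term left Sdc4 higher among the carriers and Cap1 lower among the genes inside the cell. It also called Sulf2, a sulphatase, lower among the enzymes (-0.40), where the reported difference of -0.15 did not pass (limma adjusted p = 0.5827), and Sulf2 rose by 0.58 in the left ventricle as reported (limma adjusted p = 0.01544). The calls of Cap1 in both ventricles and of Sdc4 in the right thus held with it. Leaving out WT_RV replicate 3 gave the same counts in the right ventricle. This was fixed in advance, since the class term rests on that array alone.

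**Figure D5:**
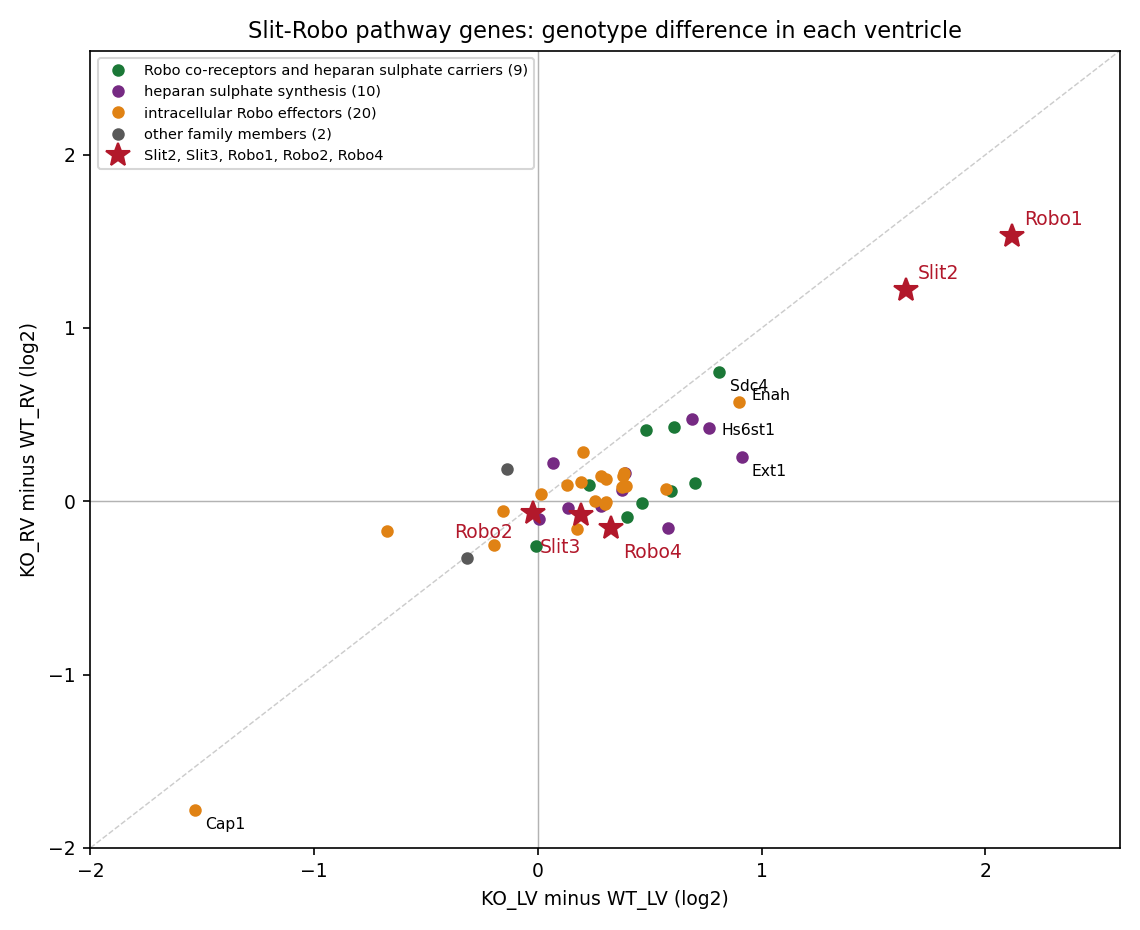
KO minus WT difference (log2) in the left ventricle (horizontal) and right ventricle (vertical) for the 5 Slit and Robo genes (stars) and 41 further genes of the pathway (points, coloured by list); the dashed line marks equal differences. Slit2 and Robo1 lie farthest to the upper right, at 1.64 and 1.22 and at 2.12 and 1.53, and Cap1 farthest to the lower left.

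Some markers of the cell types that could carry these transcripts were also called between the groups. These marker lists were likewise chosen with earlier results of these data known. Of 5 endocardial markers 4 rose and 1 fell in KO_LV relative to WT_LV, and 3 rose and 1 fell in KO_RV relative to WT_RV. Their mean level was 8.83 to 9.12 in KO_LV and 8.02 to 8.36 in WT_LV, and 8.72 to 8.86 in KO_RV and 8.10 to 8.63 in WT_RV. The matrix gene Hapln1 led the rises at 2.03 and 1.56, and the secreted protein gene Cytl1 fell by 1.48 and 1.34. Of 15 endothelial markers 8 rose, among them the junction gene Cdh5 (1.08), and 2 fell, Egfl7 (-0.69) and Cldn5 (-0.54), in the left ventricle. In the right ventricle 0 endothelial markers rose and 1 fell, Cldn5 (-0.76). The endothelial mean was 9.19 to 9.33 in KO_LV and 8.88 to 9.07 in WT_LV, and 9.13 to 9.19 in KO_RV and 8.96 to 9.27 in WT_RV.

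Of 10 cardiomyocyte markers, which define the tissue, 2 rose and 0 fell in the left ventricle, near the shares of all genes, and 1 rose and 0 fell in the right, Myh6 leading in both (1.76 and 1.33). The cardiomyocyte mean was 13.21 to 13.42 in KO_LV and 12.95 to 13.04 in WT_LV, near the top of the scale. Of 10 mesenchymal markers 2 rose and 2 fell in the left ventricle, also near those shares, and 0 rose and 1 fell in the right. Among them were Col1a1 (1.32 in the left ventricle) and Tcf21 (-1.12 in the left and -1.09 in the right). Of 7 epicardial markers 2 rose in the left and 1 in the right ventricle, Krt19 leading at 1.04 and 1.24, and 0 fell. Of 7 markers of smooth muscle and pericytes 4 rose and 2 fell in the left, and 1 rose and 1 fell in the right ventricle. Tagln averaged 10.70 in KO_LV and 9.02 in WT_LV, and 11.01 in KO_RV and 8.79 in WT_RV. Rgs5 averaged 7.76 in KO_LV and 9.22 in WT_LV, and 8.21 in KO_RV and 9.12 in WT_RV. Of 6 measured markers of nerve and neural crest, cells in which Slit and Robo are best known, 1 rose and 0 fell in the left ventricle, 0 moved in the right by limma, and 3 of the 6 stood under the median of all values. The mean of 6 liver markers was 5.74 to 6.66 in KO_LV and 6.84 to 8.41 in WT_LV, and 6.59 to 7.55 in KO_RV and 7.05 to 9.54 in WT_RV, where the groups overlap. With the control class as a term, the left ventricle calls were 0 higher and 1 lower of the endocardial markers, 0 and 0 of the endothelial, cardiomyocyte, mesenchymal, nerve and liver markers, and 1 higher and 0 lower each of the epicardial markers and of those of smooth muscle and pericytes. In the right ventricle 1 endocardial marker was called higher and 1 lower with that term, which there gives the same fit as leaving out WT_RV replicate 3. The part of these markers, and of the control class, in the Slit2 and Robo1 differences was not tested.

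The genes whose pattern over the 12 arrays lay nearest to Slit2, by root-mean-square difference after centring each gene, were Zeb2, a zinc finger repressor, at 0.19, the kinase gene Uhmk1 at 0.21 and Myh6 at 0.22. Slit2 itself spanned 2.24 over these arrays. The 11352 genes compared lay above the median of all values, and predicted genes and clone names were left out. Nearest to Robo1 were Vcan, a proteoglycan of the cardiac jelly, at 0.45, Vwf, a clotting protein of endothelial cells, at 0.49 and the receptor subunit gene Gabra4 at 0.49, with a span of 3.60 for Robo1. The arrays share genotype, strain and control class, so this measure describes these 12 arrays only.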

How the data were processed

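Per the labels' protocols, 100 ng of RNA from each pool was turned into biotinylated cRNA for Affymetrix arrays. The log2 values deposited by the authors were made with RMA (background correction, quantile normalization and a summary per probe set) per the submitters' processing notes, with no version given. Quantile normalization can mask a change that most genes share; array medians lay between 5.57 and 5.74. Neither scanner files nor detection calls were analysed here. No per-sample column was set aside (0).

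The platform annotation gave 1 symbol to 34958 of 45101 probe sets, several to 932 and none to 9211. By gene ID, 34754 of the single symbols were found in RefSeq (GRCm38.p6), and 0 needed an update. The probe set with the highest mean over the 12 arrays stood for each of 18194 genes, of which 9012 had several. No filter on dim genes was used.

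The test was limma's (lmFit, then eBayes), fitted as 1 model with a mean for each of 4 groups, with Benjamini-Hochberg adjustment over all genes and a threshold of 0.05. The fit was also run on simulated data with independent errors and no control class, strain or replicate structure. That run checks the code and says nothing about the calls reported here. The text named all 5 Slit and Robo genes, Slit1, Robo3 and Nos3. It also named up to 3 called genes per direction of each pathway list and up to 2 of each cell type list, those with the largest differences. For each called member it named the 3 nearest genes in pattern among genes above the median of all values, passing over predicted genes and clone names. Sulf2, Sema3c and the 4 noncoding RNAs of the nucleus fall outside these rules. Sulf2 and Sema3c, and Dag1 where it describes WT_RV replicate 3, were picked with their values in view. The members and the gene lists were chosen with earlier results of these data known. Of the pathway lists, Ndst1 and Pak1 were not analysed here, and some markers of nerve and neural crest are not reported here. Other settings were another normalization, filter, probe set rule, spread estimate, threshold and set of arrays, the 2 poly-A control terms and the replicate number as a block.

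The sample titles give replicate numbers and state no pairing. A rule set for the analysis asked whether the deviations of every same-numbered pair from the group means correlate over 0.1. This held between KO_RV and WT_RV (0.11, 0.26 and 0.31) and between KO_RV and KO_LV (0.21, 0.29 and 0.26). It did not hold between KO_LV and WT_LV (0.01, 0.14 and 0.42) or between WT_RV and WT_LV (0.23, -0.01 and 0.15). Nor did it hold between KO_LV and WT_RV (-0.18, 0.13 and -0.05) or between WT_LV and KO_RV (0.14, -0.07 and 0.24). KO and WT pools hold different embryos, so between them the rule describes shared deviations and does not show paired samples. The titles do not say whether left and right ventricle pools of a genotype came from the same embryos. The reported fit treats those pools as separate, and a fit with same-numbered pools of a genotype as a block was among the other settings. Promoter letters came from RefSeq. The fits ran in limma 3.58.1 under R 4.3.3, and tables and plots were made in Python 3.11.15 with pandas 2.3.3 and matplotlib 3.10.9.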

Additional observations from a re-analysis of the deposited data

How the results depend on the processing

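The 5 genes were refitted under 25 other settings (26 for the ventricle comparisons, 24 or 25 for Robo2, which the filter on dim genes removes). The Slit2 difference between KO_RV and WT_RV kept its direction and its call under all of them (0.87 to 1.38), and the Robo1 differences were positive under all of them. Leaving out 1 array at a time gave 2 to 3 of the 5 genes called between KO_LV and WT_LV, 2 to 2 between KO_RV and WT_RV, 0 to 1 for the interaction, 0 to 2 between WT_RV and WT_LV and 0 to 1 between KO_RV and KO_LV. With the control class as a term these counts were 0 in the left ventricle, 0 between WT_RV and WT_LV and 1 between KO_RV and KO_LV; with the control level 0 were called between WT_RV and WT_LV. With array weights 2 were called in the interaction, 2 between WT_RV and WT_LV and 1 between KO_RV and KO_LV. With the compared groups alone the ventricle counts were 0 in WT and 1 in KO, and with averaged probe sets 1 was called between KO_RV and WT_RV. The causes were not tested.

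Signs turned as follows. With the control class Slit3 read 0.01 between KO_RV and WT_RV and 0.13 between WT_RV and WT_LV, Robo2 0.09 between KO_LV and WT_LV, Slit2 -0.40 between WT_RV and WT_LV, and the interaction was 0.21 for Slit2 and 0.083 for Robo1. With the control level the same Slit3 values were 0.0019 and 0.035, Robo2 read 0.022 between KO_LV and WT_LV and 0.0051 between KO_RV and KO_LV, and Slit2 -0.13 between WT_RV and WT_LV. Averaged probe sets gave Slit2 0.072 for the interaction and -0.21 between WT_RV and WT_LV. Robo2 between KO_LV and WT_LV was 0.030 after quantile normalization and 0.073 after centring, and -0.030 between WT_RV and WT_LV with array weights. Leaving out 1 array moved Robo2 from -0.11 to 0.11 (KO_LV minus WT_LV), -0.18 to 0.038 (interaction), -0.058 to 0.16 (WT_RV minus WT_LV) and -0.083 to 0.057 (KO_RV minus KO_LV), and Slit3 from -0.21 to 0.01 (KO_RV minus WT_RV) and -0.14 to 0.085 (WT_RV minus WT_LV). None of these results passed the test.

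The replicate block changed no call of the 5 genes, except that as a random effect it called Robo4 higher in KO_LV than in WT_LV (0.33, limma adjusted p = 0.0446). Over all genes, 3378 were reported higher and 2239 lower in KO_LV than in WT_LV, 838 and 652 in KO_RV than in WT_RV, 0 and 4 in the interaction, 139 and 40 in WT_RV than in WT_LV, and 100 and 108 in KO_RV than in KO_LV. Without WT_RV replicate 3 the last 4 of these pairs were 556 and 411, 499 and 810, 1169 and 565, and 154 and 167. With array weights they were 1352 and 1506, 517 and 847, 1435 and 777, and 317 and 367. With the control class 134 were higher and 63 lower in KO_LV than in WT_LV, 556 and 411 in KO_RV than in WT_RV, 19 and 15 in WT_RV than in WT_LV, and 154 and 167 in KO_RV than in KO_LV. With the control level the first 2 pairs were 1773 and 785, and 481 and 322, and WT_RV against WT_LV gave 54 and 18. With the compared groups alone 537 and 391 were called between KO_RV and WT_RV, 29 and 12 between WT_RV and WT_LV, and 144 and 170 between KO_RV and KO_LV. Without KO_RV replicate 1, 2 or 3, the pairs between KO_RV and WT_RV were 447 and 315, 529 and 375, and 456 and 380. Values near the low end of the scale, as for Robo2 and the dim probe sets of Robo1, limit what could be seen.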

Other observations

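Probe set 1458140_at of Slit2, discordant in the left ventricle, and 4 noncoding RNAs of the nucleus (Airn, Kcnq1ot1, Malat1 and Meg3) varied within the left ventricle groups. The probe set read 6.58, 7.43 and 6.24 in KO_LV, against 7.36, 7.68 and 6.59 in WT_LV. The mean of the nuclear transcripts on the same arrays was 10.30, 10.25 and 8.64 in KO_LV, against 10.91, 11.26 and 10.02 in WT_LV. Replicate 3 read lowest in both measures in each of these groups, and replicate 2 of WT_LV read highest in both. In KO_LV the probe set was highest in replicate 2 and the nuclear mean in replicate 1. In the right ventricle the probe set read 6.77, 6.84 and 6.67 in KO_RV, and 6.10, 6.40 and 6.40 in WT_RV. The nuclear transcripts there averaged 10.21, 9.99 and 9.83 in KO_RV, and 9.91, 10.30 and 10.03 in WT_RV. Whether these measures are related was not tested.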
